A study of Arabidopsis thaliana with 48 samples.

Results

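A pair of groups of Arabidopsis thaliana rosettes that carry the same light label, 250 µmol photons m-2 s-1, were compared: growth light 250, labelled day 0.583, and diurnal day 0.625. The first belongs to a series of 4 light levels sampled at one time and the second to a series of 6 times of day at light 250. The comparison was defined by these labels and took 8 of the 48 deposited samples, which are 2 sequencing lanes of 2 replicates in each group. The change given throughout is growth light 250 minus diurnal day 0.625, on the log2 scale, and a locus was called where its adjusted p in edgeR was under 0.05.

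Plants of both groups were of the ecotype Columbia and were grown for 6 weeks in 2 controlled environment rooms. The last 2 weeks were spent under shade cloth that set the light level, with 10 hours of light a day at 23°C and nights at 5°C. Rosettes were then harvested within 48 hours, and RNA extracted from separate plants was pooled at random into 2 replicates per group, so that p-values measure the spread between pools. The labels do not give the moment counted as day 0 or the room of each group. If both series count days from one moment, the groups lie 0.042 day, or 1.01 hours, apart, and the series a plant belonged to and its labelled time cannot be told apart.

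In a leaf, the circadian clock makes a large share of transcripts rise and fall each day. CCA1 and LHY peak at dawn and repress the evening genes, PRR9, PRR7, PRR5 and TOC1 repress CCA1 and LHY in turn through the day, and the evening complex of ELF3, ELF4 and LUX closes the loop at dusk. Cold nights and bright light add their own programmes: CBF factors switch on COR genes, abscisic acid switches on dehydration genes, and strong light raises photoprotective and anthocyanin genes while lowering those of the light-harvesting antenna.

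Summed counts were 34112704 and 33893813 in growth light 250 and 33350608 and 20418095 in diurnal day 0.625, the last being the lowest of the 20 growth light and diurnal replicates. Between 22149 and 22821 loci had a count. Markers of a green leaf were abundant, with 5 leaf markers summing to 37895 and 35326 CPM (reads of a locus relative to the TMM-scaled size of the library) in growth light 250 and to 32959 and 31372 CPM in diurnal day 0.625. Flower markers summed to between 1.98 and 3.08 CPM, with AP1 at 0 in all 4 replicates, and seed markers to at most 0.0968 CPM, with 2 of 4 at 0. None of the tested flower, root, guard cell, phloem or meristem markers was called. Fewer cells of a type and less RNA per cell cannot be told apart in such bulk samples.

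Of 20167 loci tested, 707 were called (3.51%). Of these, 375 were higher in growth light 250 (1.86% of those tested) and 332 lower (1.65%). These shares are the background for the counts of calls in each list and family below. Most differences were small: the median absolute change of the called loci was 0.47, against 0.12 for all tested loci. A doubling or more was reached by 13 called loci and a halving or more by 79. Replicates of the groups did not overlap for any of the 707, nor for 47% of all tested loci. The plot of all tested loci shows a longer tail of blue points on the lower side. Its names were chosen, and most of those on that side are cold, dehydration and light stress genes. Other large falls, among them RNS1, AT2G43620 and AZI1, lie outside those lists.

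How many loci were called depended on where the spread was taken from. With the spread shared over all 10 growth light and diurnal groups, 97 loci were called (0.457%), 96 of them among the 707. Without diurnal day 0.625 replicate 1 or replicate 2, edgeR called 0 loci in either case, with 2872 and 2200 at an unadjusted p under 0.05, and no call described below remained in either fit. Without growth light 250 replicate 1 or 2 it called 952 and 675. With the fit scaled to total counts instead of by TMM, 33.3% of 841 calls were higher, against 53.0% of the 707, and the median of all loci moved to -0.06.

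**Figure D1:**
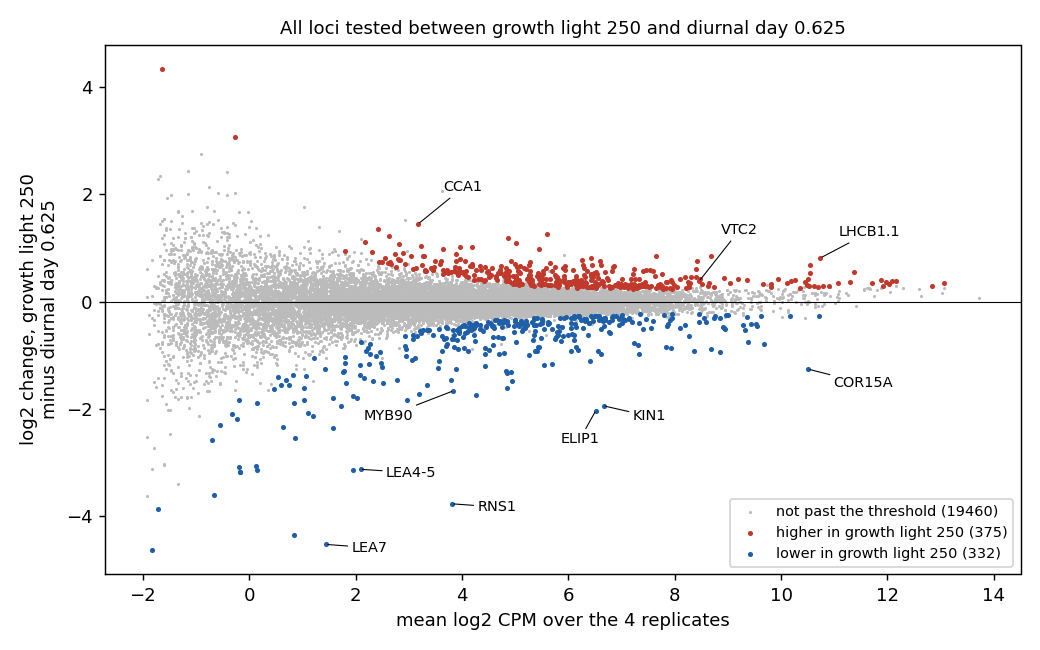
Each point is one of the 20167 loci tested, placed by its mean log2 CPM over the 4 replicates (x axis) and its log2 change, growth light 250 minus diurnal day 0.625 (y axis). Red points are the 375 loci called higher and blue points the 332 called lower at an adjusted p under 0.05, and lines lead from gene names to their points.

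Genes on the list of morning clock genes were mostly higher in growth light 250. Of the 12 on the list, 7 were called higher and 1 lower (1.86% and 1.65% of all tested loci). Their median change was 0.56, against -0.00 over all loci tested. CCA1, the dawn MYB repressor (AT2G46830, chromosome 2, 19245591 to 19248915, plus strand), stood at 13.6 and 12.8 CPM in growth light 250 and at 5.07 and 4.40 CPM in diurnal day 0.625. The groups did not overlap, and the change was 1.45 ± 0.14 (SE, adjusted p = 1.23e-04 in edgeR). The call remained with the spread of 10 groups (adjusted p = 0.00344), as it did for 5 of the 7. In that fit CCA1 lost it without diurnal day 0.625 replicate 2 (adjusted p = 0.0821) and kept it without each of the other replicates.

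RVE8, a MYB activator of evening genes, read 8.19 and 8.89 CPM against 4.11 and 3.00 CPM, a change of 1.22 ± 0.18 (adjusted p = 0.00242). Its partners LNK1, LNK2 and LNK3, which RVE8 recruits to its targets, were called with changes of 0.47, 0.69 and 0.64. RVE7 (EPR1) and RVE4 were called at 0.98 and 0.42, although RVE7 shares 99.8% of 615 bases with AT3G10113, so reads between them may have been split. LHY, the closest partner of CCA1, read 2.83 and 2.77 CPM against 1.39 and 1.40 CPM and was not called (change 0.99 ± 0.27, adjusted p = 0.0764). The opposite call was RVE2, at 0.431 and 0.523 CPM against 1.84 and 1.64 CPM (change -1.88 ± 0.40, adjusted p = 0.0215). In the diurnal series RVE2 was highest at day 0.083 (225 ± 9.89 CPM) and stood at 1.83 ± 0.42 CPM at day 0.375.

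Genes on the list of day and evening clock genes were called in both directions. Of 14 day and evening clock genes, 2 were called higher and 4 lower (1.86% and 1.65% of all tested loci), with a median change of -0.14. The called higher pair was PRR9, the earliest of the pseudo-response regulators, and PRR7, the next in the sequence. PRR9 read 24.3 and 25.5 CPM against 13.3 and 10.7 CPM (change 1.02 ± 0.11, adjusted p = 3.03e-04), and PRR7 233 and 243 CPM against 174 and 164 CPM (change 0.48 ± 0.06, adjusted p = 7.96e-04). PRR9 has a near-identical stretch of 440 bases in AT2G46670 (99.3%).

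The 4 called lower were ELF4, TOC1, LUX and FKF1. ELF4, the small protein of the evening complex, read 12.6 and 12.3 CPM against 24.0 and 22.6 CPM, a change of -0.92 ± 0.10 (adjusted p = 2.25e-04). TOC1, the last pseudo-response regulator of the day, read 49.5 and 40.9 CPM against 70.8 and 77.5 CPM, a change of -0.73 ± 0.09 (adjusted p = 8.12e-04). LUX, the DNA-binding member of the complex, read 29.4 and 29.1 CPM against 41.1 and 43.8 CPM, a change of -0.55 ± 0.08 (adjusted p = 0.00159). TOC1 alone of the 4 was still called with the spread of 10 groups, and 6 members were lower at an unadjusted p under 0.05. LUX overlaps AT3G46650 on the other strand.

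The genes around the middle of the sequence did not pass the test. GI, which stabilises the photoreceptor ZTL, read 215 and 211 CPM against 209 and 220 CPM, a change of -0.03 ± 0.06 (adjusted p = 0.879). PRR5 read 62.2 and 53.2 CPM against 59.1 and 55.2 CPM, a change of -0.01 ± 0.08 (adjusted p = 0.983), and the sign of both turned under some of the alternatives given in the closing section. Of 5 tested CDF and flowering output genes, 0 were called by edgeR and 0 by DESeq2, with 1 higher at an unadjusted p under 0.05 in each.

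The neighbouring diurnal times give the clock genes a scale. CCA1 averaged 466 ± 9.46 CPM (SD, n = 2) at day 0.375, 13.2 ± 0.52 in growth light 250 at its label of 0.583, 4.74 ± 0.47 at 0.625 and 4.16 ± 0.88 at 0.75. ELF4 averaged 1.70 ± 0.20, 12.4 ± 0.24, 23.3 ± 0.96 and 36.4 ± 0.84 CPM at the same points, and LUX 1.55 ± 0.33, 29.2 ± 0.15, 42.4 ± 1.92 and 62.1 ± 7.67. CCA1 and PRR9, which fell from day 0.375 to 0.75, stood above their day 0.625 level, and ELF4, LUX and TOC1, which rose, below it. Not every rising gene did so. PRR5 and GI rose by 3.22 and 1.22 log2 units between those days and changed here by -0.01 and -0.03. PIF4 rose by 1.81 and was higher in growth light 250 by 0.26, without a call. RVE2 did not lie between these times: its replicates in growth light 250 were below all 12 diurnal replicates, the lowest of which was 1.53 CPM at day 0.375.

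**Figure D2:**
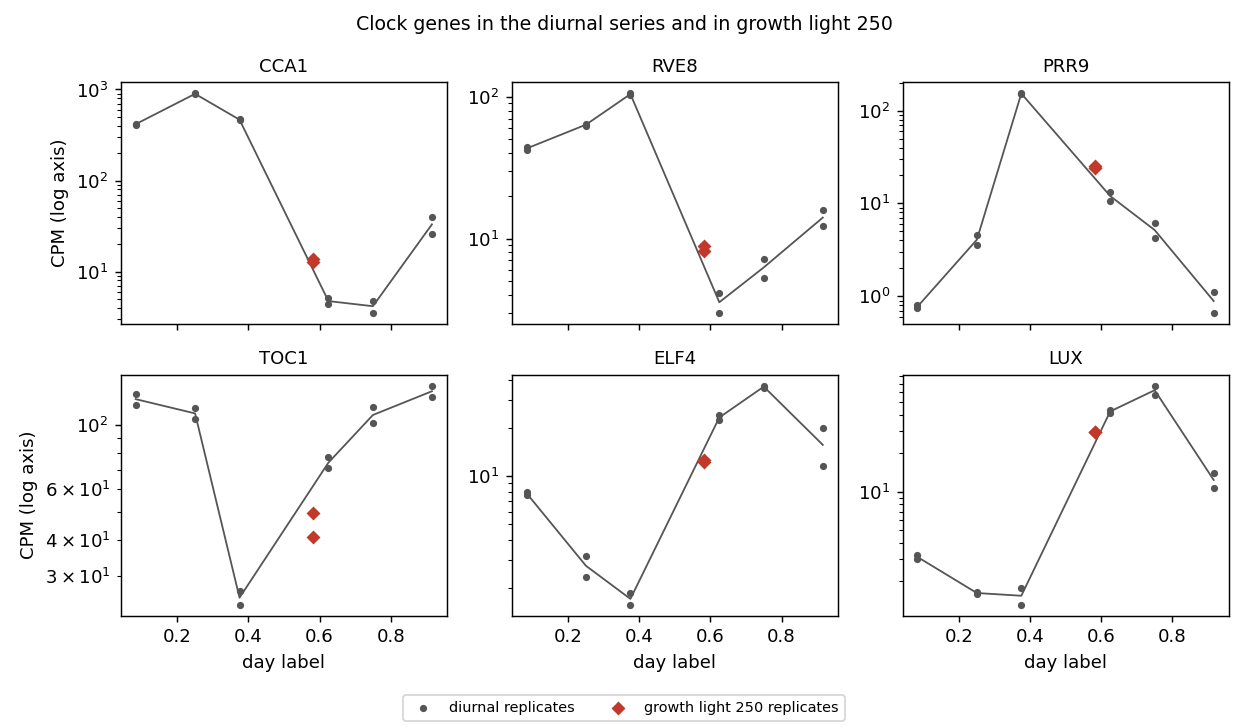
CPM of 6 clock genes (y axes, log scale) against the day label (x axis). Grey points are the 2 replicates of each diurnal group joined through their means, and red diamonds are the 2 replicates of growth light 250, which lie above the day 0.625 points for CCA1, RVE8 and PRR9 and below them for TOC1, ELF4 and LUX.

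The labelled time was the same in the other growth light groups, and the clock genes differed among them. CCA1 averaged 5.20 ± 0.23 CPM at light 100, 20.1 ± 4.00 at 450 and 15.7 ± 0.31 at 700, and RVE8 3.84 ± 0.29, 10.8 ± 1.97 and 8.44 ± 0.83. TOC1 went the other way, at 67.7 ± 1.38, 42.7 ± 2.38 and 43.8 ± 1.45 CPM. For these 3 genes the level of diurnal day 0.625 lay nearer to growth light 100 than to growth light 250. For ELF4 it did not, since growth light 100 stood at 5.95 ± 0.78 CPM.

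Genes of the cold response were lower in growth light 250 where they were called. Of the 16 on the list, 7 were called lower and 0 higher (1.65% and 1.86% of all tested loci), with a median change of -0.29. DESeq2 also called 7 lower. KIN1, a small cold-induced protein (AT5G15960, chromosome 5, 5209717 to 5210826, plus strand), read 48.1 and 38.3 CPM in growth light 250 and 159 and 169 CPM in diurnal day 0.625. The groups were far apart beside their spread, with a change of -1.94 ± 0.09 (adjusted p = 1.61e-06). KIN2, its neighbour with 92.1% identity over 505 bases, read 603 and 640 CPM against 1129 and 986 CPM (change -0.78 ± 0.07, adjusted p = 7.95e-05).

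COR15A, which encodes a chloroplast protein that stabilises membranes in the cold, was among the abundant transcripts, at 994 and 774 CPM against 2103 and 2076 CPM. Its change was -1.26 ± 0.10 (adjusted p = 2.13e-05). XERO2, a dehydrin, read 16.6 and 12.8 CPM against 45.0 and 43.9 CPM, a change of -1.62 ± 0.11 (adjusted p = 1.47e-05). COR15B, COR413IM1 and COR413-PM1 were called at -0.89, -0.54 and -0.29, with COR15B overlapping AT2G42520 on the other strand.

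The upstream CBF factors did not pass the test. CBF3 read 40.7 and 32.3 CPM against 33.6 and 33.1 CPM (change 0.11 ± 0.10, adjusted p = 0.649), CBF1 changed by -0.04 and CBF2 by 0.73, and none was called. COR47, ERD10 and RD29A, also cold-induced, were not called either, at -0.15, 0.05 and -0.29. Under the spread of 10 groups 4 members were called, KIN1, COR15A and XERO2 among them (KIN1 adjusted p = 1.39e-04). KIN1 also passed when that fit left out any 1 of the 4 replicates (adjusted p from 0.00210 to 0.0103).

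Dehydration and abscisic acid genes gave calls of both larger and smaller size on the lower side. Of 26 tested, 13 were called lower and 1 higher (1.65% and 1.86% of all tested loci). Their median change was -0.26, and DESeq2 called 11 lower. HAI3 was not tested, with 8 counts in all. LEA4-5, a late embryogenesis abundant protein that protects cells as they dry, read 1.08 and 0.80 CPM against 7.85 and 8.47 CPM, a change of -3.13 ± 0.23 (adjusted p = 1.79e-05). LEA7 read 0.277 and 0.185 CPM, from 9 and 6 counts, against 7.25 and 3.24 CPM, a change of -4.53 ± 0.46 (adjusted p = 1.92e-04). Its change was -3.81 without diurnal day 0.625 replicate 1. The LEA7 locus overlaps AT1G52695 on the other strand.

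Members with a role in the hormone itself were among the lower calls. NCED3, the enzyme that limits abscisic acid synthesis under drought, read 6.28 and 4.83 CPM against 12.6 and 10.7 CPM (change -1.09 ± 0.16, adjusted p = 0.00216). HAI1, a phosphatase that holds the signal back, read 7.29 and 7.97 CPM against 24.5 and 16.7 CPM (change -1.46 ± 0.16, adjusted p = 3.32e-04). The target genes RD29B, RAB18 and RD26 were called at -1.72, -0.93 and -0.71. RD29B read 19.1 and 9.19 CPM in diurnal day 0.625, changed by -1.07 without replicate 1 of that group, and was not called with the spread of 10 groups (adjusted p = 0.0879). LTP3 and LTP4, neighbouring lipid-transfer protein genes, were called at -0.98 and -1.10.

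The 1 call on the higher side was GOLS2, a galactinol synthase, at 131 and 119 CPM against 72.7 and 72.4 CPM (change 0.77 ± 0.07, adjusted p = 6.08e-05). RD22, HB-12, P5CS1 and DREB2A were not called, with changes between -0.08 and 0.02. LEA7 and LEA4-5 were among 3 members called lower with the spread of 10 groups, and 10 were lower at an unadjusted p under 0.05.

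RNS1, a secreted ribonuclease induced by phosphate starvation and by wounding, was lower by a wide margin. It read 1.17 and 2.92 CPM in growth light 250 and 21.7 and 34.2 CPM in diurnal day 0.625, a change of -3.77 ± 0.29 (adjusted p = 2.51e-05, and 0.0152 with the spread of 10 groups). In the latter fit RNS1 kept its call without diurnal day 0.625 replicate 1 (adjusted p = 0.0391) and lost it without each of the other 3 replicates (adjusted p from 0.127 to 0.207), and its change ran from -3.26 without growth light 250 replicate 1 to -4.57 without replicate 2. None of the other 9 tested phosphate starvation genes was called, and 8 of the 10 had a change above 0.

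**Figure D3:**
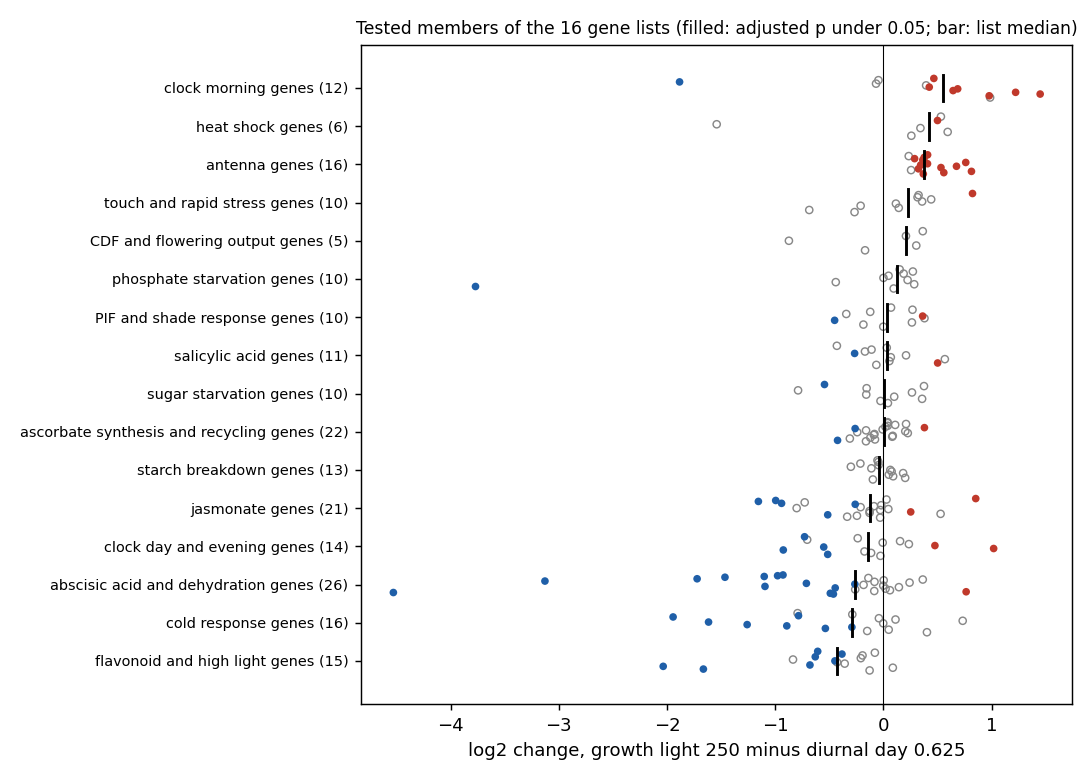
Log2 change (x axis) of the tested members of 16 gene lists (y axis, number tested in brackets), with lists ordered by their median, drawn as a black bar. Filled points are members called higher (red) or lower (blue) and open points those that were not. Flavonoid, cold and dehydration genes lie to the left, and morning clock and antenna genes to the right.

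Promoters of 5 genes called lower are shown, chosen because they hold motifs that cold and clock factors bind. They are the 250 bases before the annotated start in RefSeq TAIR10.1, read 5′ to 3′ on the strand of the gene. Capitals mark the DRE core CCGAC bound by CBF factors, the G-box CACGTG bound by PIF, HY5 and abscisic acid factors, and the evening element AAAATATCT bound by CCA1, LHY and RVE8, on either strand, so that GTCGG and AGATATTTT are the reverse forms. No occurrence overlapped another in these 5. XERO2 lies on the plus strand at chr3:18940393-18940642 and COR15A on the minus strand at chr2:17712331-17712580.
XERO2: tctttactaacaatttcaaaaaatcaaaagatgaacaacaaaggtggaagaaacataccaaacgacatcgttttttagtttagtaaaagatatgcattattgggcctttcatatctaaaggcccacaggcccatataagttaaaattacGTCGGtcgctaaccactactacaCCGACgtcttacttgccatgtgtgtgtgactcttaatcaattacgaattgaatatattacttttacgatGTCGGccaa
COR15A: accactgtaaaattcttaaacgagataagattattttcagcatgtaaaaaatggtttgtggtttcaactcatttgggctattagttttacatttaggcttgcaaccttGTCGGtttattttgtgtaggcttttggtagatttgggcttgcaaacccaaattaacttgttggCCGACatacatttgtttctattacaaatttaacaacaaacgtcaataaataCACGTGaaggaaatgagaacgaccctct
LEA4-5 lies on the minus strand at chr5:2090431-2090680. The windows of TOC1 at chr5:24674713-24674962 and LUX at chr3:17182792-17183041, both on the plus strand, carry the evening element.
LEA4-5: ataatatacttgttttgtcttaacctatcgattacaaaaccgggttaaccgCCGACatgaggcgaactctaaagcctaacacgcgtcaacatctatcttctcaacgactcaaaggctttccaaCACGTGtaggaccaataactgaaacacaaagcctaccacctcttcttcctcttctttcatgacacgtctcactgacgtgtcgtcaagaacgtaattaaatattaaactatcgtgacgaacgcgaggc
TOC1: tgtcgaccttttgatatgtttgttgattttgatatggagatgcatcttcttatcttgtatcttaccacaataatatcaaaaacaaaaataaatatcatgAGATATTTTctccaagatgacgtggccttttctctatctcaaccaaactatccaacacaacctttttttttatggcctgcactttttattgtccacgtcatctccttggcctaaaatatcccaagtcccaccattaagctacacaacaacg
LUX: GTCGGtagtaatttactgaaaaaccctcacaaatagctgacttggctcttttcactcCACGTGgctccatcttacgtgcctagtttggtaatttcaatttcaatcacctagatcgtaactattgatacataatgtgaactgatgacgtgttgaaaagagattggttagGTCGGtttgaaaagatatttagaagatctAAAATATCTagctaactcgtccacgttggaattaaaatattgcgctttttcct

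XERO2 held 3 DRE cores, COR15A 2 with 1 G-box, and LEA4-5 1 of each. KIN1, COR15B and ELF4, also called lower, held none of the 3 motifs in this window. LUX held 2 DRE cores beside its evening element. Genes that were not called lower held the motifs too. PRR5, which was not called, and RVE7, called higher, each held 1 evening element, and CIPK20 and ORA59, called higher, each held 1 DRE core. Over all lower calls with a promoter, 16.5% of 328 held a DRE core, against 11.6% of 370 higher calls and 13.1% of 19291 tested loci. The evening element was found in 7.62% of the lower and 4.32% of the higher calls, against 2.59% of those tested. The G-box was found in 14.3% and 14.9%, against 7.41%. These are counts of letters in a window and say nothing of binding.

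Several light stress genes were lower in growth light 250, the light label being the same. Of 15 flavonoid and high light genes, 7 were called lower and 0 higher (1.65% and 1.86% of all tested loci). Their median change was -0.43. ELIP1, an early light-induced protein that binds free chlorophyll in bright light (AT3G22840, chromosome 3, 8084405 to 8085669, minus strand), read 41.8 and 32.4 CPM against 136 and 164 CPM. Its change was -2.03 ± 0.11 (adjusted p = 5.28e-06). MYB90, an activator of anthocyanin genes, read 7.82 and 6.56 CPM against 21.9 and 23.2 CPM, a change of -1.66 ± 0.12 (adjusted p = 1.75e-05), and has a 94.7% identical stretch of 263 bases in MYB114.

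MYB75, the close relative of MYB90, was not called (-0.13), and the enzymes that were called changed by smaller steps. F3H, an early flavonoid enzyme, read 35.1 and 35.8 CPM against 52.3 and 60.1 CPM (change -0.68 ± 0.08, adjusted p = 7.17e-04), with AT3G51238 overlapping it on the other strand. F3'H, which adds a hydroxyl to the ring, was called at -0.63, the anthocyanin transferases UF3GT and AT4G14090 at -0.61 and -0.45, and CHS, the entry enzyme, at -0.38. DFR, LDOX and FLS1 were not called, with changes of -0.08, -0.21 and -0.19. With the spread of 10 groups edgeR called 0 of the 15 (3 lower at an unadjusted p under 0.05, ELIP1 adjusted p = 0.0633), and with the spread of the growth light groups and diurnal day 0.625 it called 2.

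Antenna genes were higher almost throughout. Of 16, 14 were called higher and 0 lower (1.86% and 1.65% of all tested loci), with a median change of 0.38, and DESeq2 called 15. LHCB1.1, a main protein of the light-harvesting complex of photosystem II, read 2152 and 2322 CPM against 1389 and 1125 CPM, a change of 0.81 ± 0.09 (adjusted p = 2.96e-04). LHCB2.1 read 1887 and 1894 CPM against 1283 and 1056 CPM, a change of 0.68 ± 0.08 (adjusted p = 6.87e-04). LHCB3, which links the complexes, was called at 0.41, and LHCA1 to LHCA4 of photosystem I between 0.29 and 0.38.

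Counts of the LHCB1 and LHCB2 genes are uncertain one by one, since LHCB1.1 and LHCB1.2 share 94.1% of 1038 bases and LHCB2.1 and LHCB2.2 94.4% of 1032. LHCB1.3 and LHCB4.1 were not called, at 0.26 and 0.23. Under the spread of 10 groups edgeR called 0 antenna genes, with 1 at an unadjusted p under 0.05, and under that of the growth light groups and diurnal day 0.625 it called 0, with 13. RCA, the activase of the carbon-fixing enzyme, was the 1 of 5 leaf markers that was called (change 0.30).

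**Figure D4:**
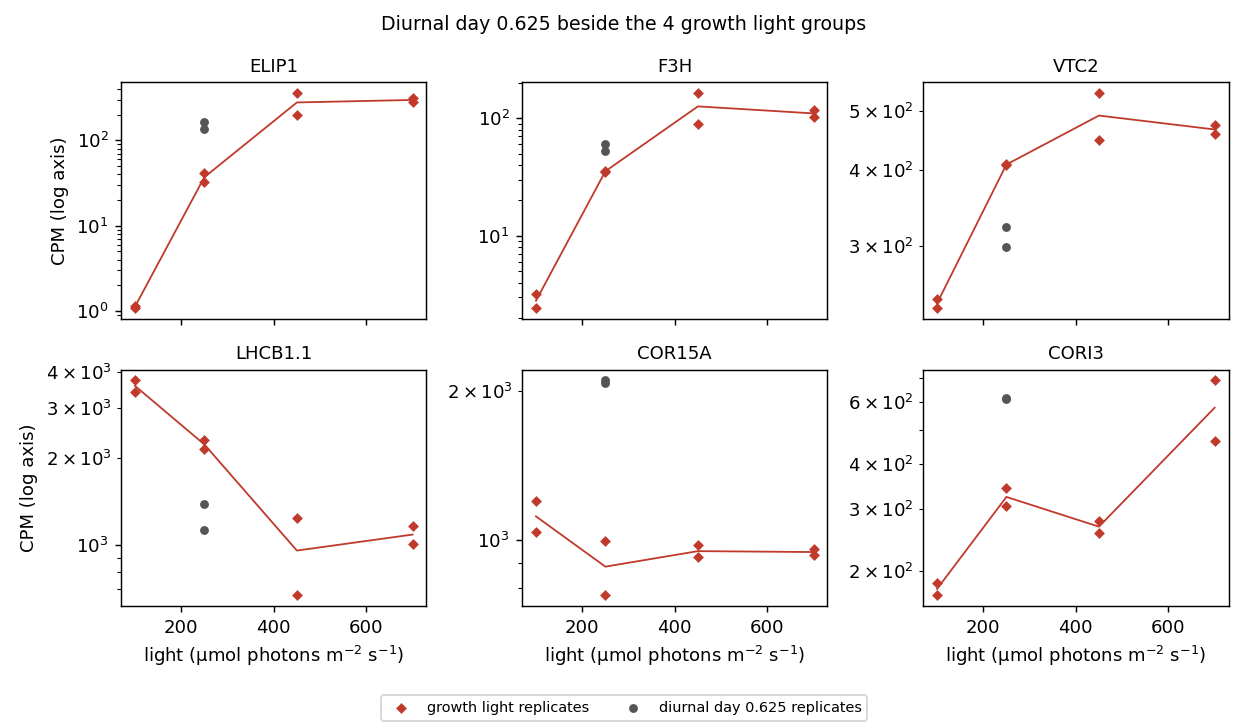
CPM of 6 genes (y axes, log scale) against the light label (x axis, µmol photons m-2 s-1). Red diamonds are the 2 replicates of each growth light group joined through their means, and grey points are the 2 replicates of diurnal day 0.625 at light 250, which lie above the line for ELIP1, F3H, COR15A and CORI3 and below it for VTC2 and LHCB1.1.

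The growth light series gives a scale for these levels. ELIP1 averaged 1.12 ± 0.05 CPM at light 100, 37.1 ± 6.63 at 250, 278 ± 113 at 450 and 298 ± 26.6 at 700. Diurnal day 0.625, at 150.4 ± 19.9, lay between the groups at 250 and 450. LHCB1.1 ran the other way, at 3581 ± 228, 2237 ± 120, 954 ± 407 and 1084 ± 112 CPM, and diurnal day 0.625 stood at 1257 ± 186. COR15A averaged between 884 and 1117 CPM in all 4 growth light groups, so that its 2089 ± 19.3 CPM in diurnal day 0.625 was outside the range of that series.

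Most ascorbate genes were not called. Of 22 tested, 1 was called higher and 2 lower (1.86% and 1.65% of all tested loci), with a median change of 0.01. VTC2, the GDP-L-galactose phosphorylase that commits carbon to ascorbate (AT4G26850, chromosome 4, 13498956 to 13501701, minus strand), read 408.0 and 408.8 CPM against 299 and 322 CPM. The difference was larger than the spread (change 0.38 ± 0.06, adjusted p = 0.00414), but the call was lost with the spread of 10 groups (adjusted p = 0.192). VTC5, its second copy, read 33.7 and 34.7 CPM against 33.1 and 32.7 CPM (change 0.04 ± 0.07, adjusted p = 0.852), and its sign turned under total-count scaling (-0.01).

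DHAR1, which regenerates ascorbate, read 657 and 635 CPM against 841 and 871 CPM, a change of -0.42 ± 0.06 (adjusted p = 0.00179). It shares 94.3% of 653 bases with AT1G19540, so reads between them may have been split. SAPX, a chloroplast peroxidase that uses ascorbate, was called at -0.26. Neither remained called with the spread of 10 groups. The steps on either side of VTC2 in the pathway, GME and VTC4, were not called, at 0.04 and 0.23. In the diurnal series VTC2 was lowest at day 0.625, and growth light 250 lay between that level and the 1307 ± 41.7 CPM of day 0.375.

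Defence hormones showed mixed changes. Of 21 jasmonate genes, 5 were called lower and 2 higher (1.65% and 1.86% of all tested loci), with a median change of -0.13. CORI3, a coronatine-induced lyase, read 305 and 343 CPM against 616 and 613 CPM, a change of -0.94 ± 0.07 (adjusted p = 1.75e-05), and kept its call with the spread of 10 groups. It lost it in that fit without any 1 of the 4 replicates (adjusted p from 0.115 to 0.201). VSP2 and VSP1, vegetative storage proteins that share 85.5% of 911 bases, were called at -1.15 and -0.99. Both lost the call with the spread of 10 groups (adjusted p = 0.546 and 0.643) and with that of the growth light groups and diurnal day 0.625 (0.158 and 0.227). LOX2, an early enzyme of jasmonate synthesis, and the repressor JAZ1 were called at -0.26 and -0.51.

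The defensin PDF1.2a and the repressor JAZ9 were the 2 called higher. PDF1.2a read 187 and 341 CPM against 126 and 164 CPM (change 0.85 ± 0.20, adjusted p = 0.0409), and the call was lost in DESeq2 (adjusted p = 0.557). Its change was 0.36 without growth light 250 replicate 2. PDF1.2a shares 86.5% of 534 bases with PDF1.2b. ORA59, an ethylene response factor that acts on PDF1.2a, read 10.2 and 14.99 CPM against 5.74 and 6.53 CPM (change 1.03 ± 0.18, adjusted p = 0.00697). In the salicylic acid list, ICS1, which makes its precursor, was called higher (0.50) and WRKY70 lower (-0.27) among 11. DESeq2 did not call WRKY70 (adjusted p = 0.0569).

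Most members of the remaining lists were not called, and 3.51% of all tested loci were. Of 13 starch breakdown genes, edgeR called 0, with 2 higher and 2 lower at an unadjusted p under 0.05, and DESeq2 called 1 lower. TCH4, a touch-induced cell wall enzyme, was the 1 call of 10 touch genes (0.82), HSP90.1 the 1 of 6 heat shock genes tested (0.50), and EXL2 the 1 of 10 sugar starvation genes (-0.55). DESeq2 called neither TCH4 (adjusted p = 0.0504) nor HSP90.1 (0.0802), and HSP90.1 was also lost under total-count scaling (0.0616). HSP21 and the gene named ATHSP22.0 in the reference had no count in any of the 4 replicates. Among 10 PIF and shade genes, PIF5 was called higher (0.36) and PIL1 lower (-0.45). PIF4, a growth-promoting factor, read 127 and 140 CPM against 118 and 101 CPM and was not called (0.26, adjusted p = 0.0899).

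Among loci outside the lists, the larger calls with a mean log2 CPM of at least 3 were mixed in role. CIPK20, a kinase that acts with calcium sensors, read 37.0 and 45.7 CPM against 18.8 and 16.7 CPM (change 1.19 ± 0.11, adjusted p = 7.69e-05). MYB59, a MYB factor, read 58.1 and 60.2 CPM against 29.6 and 29.8 CPM (change 0.98 ± 0.07, adjusted p = 1.79e-05). AT3G16530, a legume lectin, and AT3G23550, a MATE transporter, were called at 1.26 and 1.01 and have close copies. On the lower side AT2G43620, of the chitinase family, read 6.99 and 11.4 CPM against 33.8 and 27.0 CPM (change -1.75 ± 0.18, adjusted p = 1.87e-04). EARLI1 and AZI1, neighbouring lipid-transfer-like genes, were called at -1.33 and -1.32.

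The calls were set beside 2 contrasts that use none of these libraries. Between diurnal days 0.75 and 0.375, 35.4% of 20873 loci were called, and across 20069 loci tested in both the changes had Pearson's r of 0.01 and Spearman's rho of 0.07. Of 373 higher calls, 139 were called lower at day 0.75 (37.3%, background 18.9%) and 65 higher (background 16.6%). Of 332 lower calls, 123 were lower at day 0.75 (37.0%) and 84 higher (25.3%). Loci of either direction were more often lower than higher at the later time. Loci share their libraries and are not independent.

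Between growth light 700 and 100, 38.2% of 20571 loci were called, and across 20077 loci r was -0.05 and rho 0.05. Over the 703 loci called here and tested there, r was -0.22 and rho -0.12. Of 374 higher calls, 41.7% were called higher at 700 (background 19.1%) and 30.7% lower (background 19.2%). Of 329 lower calls, 43.8% were higher at 700 and 32.8% lower.

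Many called loci lay outside all 6 diurnal times. Both replicates of growth light 250 were below all 12 diurnal replicates for 160 of the 332 lower calls (48.2%), against 6.02% of tested loci, and above all 12 for 160 of the 375 higher calls (42.7%), against 7.95%. Diurnal day 0.625 is among the 12, so that these shares are not independent of the calls. Antenna genes were above in 15 of 16, and flavonoid genes below in 7 of 15, jasmonate genes in 8 of 21, cold genes in 5 of 16 and dehydration genes in 7 of 26. Of the 26 clock genes, 3 were above and 1 was below.

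KIN1 showed the separation plainly. Its diurnal group means ran from 123 ± 6.09 CPM at day 0.75 to 571 ± 33.7 at day 0.375, while growth light 100, 250, 450 and 700 averaged 71.8 ± 17.2, 43.2 ± 6.98, 55.7 ± 10.2 and 88.4 ± 8.69 CPM. RNS1 averaged between 14.2 and 62.8 CPM in the 6 diurnal groups and between 2.05 and 6.13 CPM in the 4 growth light groups. All 8 growth light replicates of both genes were thus below all 12 diurnal ones. ELIP1 and MYB90 were not so divided, since growth light 450 and 700 reached the diurnal range.

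**Figure D5:**
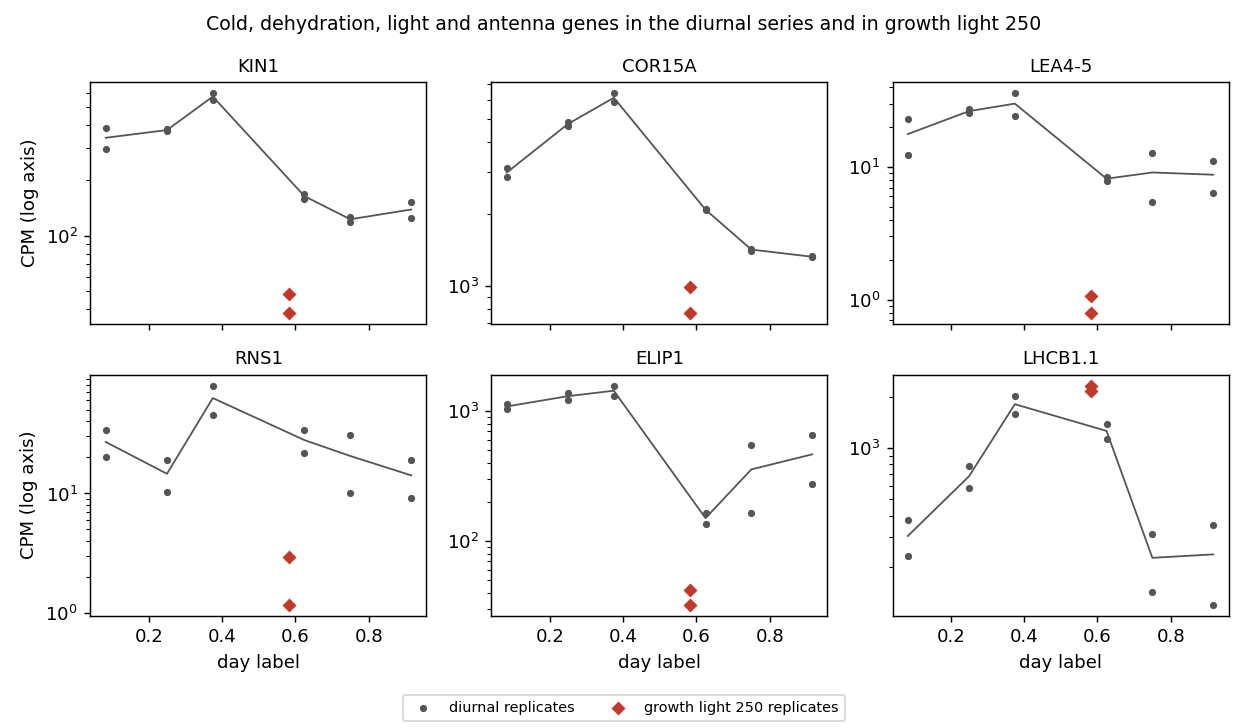
CPM of 6 genes (y axes, log scale) against the day label (x axis). Grey points are the 2 replicates of each diurnal group joined through their means, and red diamonds are the 2 replicates of growth light 250, which lie below all 12 diurnal replicates in 5 panels and above them for LHCB1.1.

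The same division was counted in groups that share no library with the comparison. The 6 replicates of growth light 100, 450 and 700 were set against the 4 of diurnal days 0.375 and 0.75, on either side of the labelled 0.583. Of the 332 lower calls, 62 (18.7%) had all 6 below all 4, and 2 had all 6 above. Of the 375 higher calls, 84 (22.4%) had all 6 above and 14 (3.73%) below. Over all tested loci the shares were 4.91% below and 6.36% above. KIN1, COR15A, LEA4-5, RNS1, EARLI1 and AT2G43620 were among the 62, and CIPK20, MYB59, ICS1, LHCB1.2 and PRR7 among the 84. The lists differed in this count. All 6 were below for 2 of 7 lower cold calls, 3 of 13 dehydration, 2 of 5 jasmonate, 0 of 7 flavonoid and 0 of 4 day and evening clock calls. All 6 were above for 6 of 14 higher antenna calls and 0 of 7 morning clock calls. Of the 16 cold genes tested, 3 had all 6 below and 3 had all 6 above.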

How the data were processed

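RNA from rosette leaves was sequenced, and the authors deposited whole-number counts per transcript and lane. Bowtie2 and TAIR10 are named per the submitters' processing notes; the counter, its use of strand and the annotation are not given in the sources used here. The growth light table stands 2 times in its file, and 1 copy was used; the 4 columns it shares with the other table were identical. The 2 lanes of each replicate were added together, as were the transcripts of a locus (41671 transcripts, 33602 loci), and 32835 of the loci have an entry in RefSeq TAIR10.1. Of counts from 1 to 10, 70.0% were even, and lanes of one replicate differed by 1.95 to 2.00 times the variance of independent counts, so single counts are not independent reads.

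The 2 groups were fitted alone with edgeR 4.0.16 in R 4.3.3 (TMM scaling, its filter on low counts, quasi-likelihood F test, Benjamini-Hochberg adjusted p under 0.05), with 2 residual degrees of freedom. DESeq2 1.42.0 was an alternative. CPM values use TMM-scaled library sizes, and ± after a log2 change is the SE. Near-identical copies (at least 85% identity over at least 100 bases) were found with BLAST 2.17.0. On simulated data of this comparison (33602 loci, 20107 tested), 99% of 100 changes of 1 log2 unit and 56% of 100 changes of 0.5 were recovered, with 3.73% false among 161 calls. All simulated loci had the same spread (biological coefficient of variation 0.0675), and changes were placed only in well-counted loci. These shares thus do not describe loci with few counts or a larger spread.

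The comparison, the gene lists and the rule for named loci were chosen with earlier results of these data known. Named were VTC2, VTC5, CCA1, LHY, PIF4, GI, TOC1 and PRR5, up to 4 called members per list with the largest change, and the 12 largest changes per direction among called loci with a mean log2 CPM of at least 3 and no overlap. Other members of the lists were named to complete the account of each list, after their values were seen. Deviations of same-numbered replicates from their group means had a correlation of 0.026 over 20167 loci, so no pairing was seen over all loci together. With 2 replicates per group this is a single value, which cannot exclude pairing at some loci.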

Additional observations from a re-analysis of the deposited data

How the results depend on the processing

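The count of 707 was between 478 and 952 under other scalings, DESeq2 (which lost WRKY70, HSP90.1, TCH4 and PDF1.2a among 52 named calls), other filters, single lanes, halved counts, single transcripts, thinning to the lowest total and leaving out either replicate of growth light 250. It was 1534 with a replicate block, although no pairing by number was seen over all loci together, and 2340 with each lane as its own sample. It was 345 with the spread shared by the growth light groups and diurnal day 0.625, and 97 with that of 10 groups. Where a single replicate was left out, the lone sample of either group is assumed to vary like the other group. Why the calls of these fits, given above, differed with the group left out was not tested. Leaving out single replicates with the spread of 10 groups, chosen after seeing the data as was the thinning, gave 32 and 9 without diurnal day 0.625 replicates 1 and 2, and 15 and 12 without those of growth light 250.

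The counts of this paragraph are of higher calls for morning clock and antenna genes and of lower calls for the other lists. With the spread of 10 groups, 1 day and evening clock gene, 4 cold genes, 3 dehydration genes, 0 flavonoid genes and 0 antenna genes were called. With that of the growth light groups and diurnal day 0.625, 2 flavonoid and 0 antenna genes were. Leaving out single replicates gave 0 to 8 morning clock genes, 0 to 5 day and evening clock genes, 0 to 8 cold genes, 0 to 11 dehydration genes, 0 to 9 flavonoid genes and 0 to 14 antenna genes, with edgeR calling 0 in each list without either replicate of diurnal day 0.625 (at an unadjusted p under 0.05, 8 and 9 morning clock, 5 and 6 evening clock, 8 and 8 cold, 12 and 15 dehydration, 7 and 9 flavonoid, and 16 and 15 antenna genes). Leaving out replicates with the spread of 10 groups gave 0 to 2 morning clock genes, 0 to 1 day and evening clock genes, 2 to 3 cold genes, 0 to 1 dehydration genes, and 0 flavonoid and 0 antenna genes. The cause was not tested. Of 52 named loci that were called, 23 kept their call with the spread of 10 groups and 34 with that of the growth light groups and diurnal day 0.625.

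The correlation with the change from day 0.375 to 0.75 turned from 0.015 to -0.035 over called loci, and that with light moved from -0.05 to -0.22. Only uncalled genes changed sign. GI ranged from -0.066 to 0.017 when single replicates were left out, and was 0.024 without diurnal day 0.625 replicate 2 with the spread of 10 groups. PRR5 ranged from -0.12 to 0.10 when single replicates were left out, and was 0.0070 on lane 2, 0.0054 when thinned and 0.0024 with 10 groups, where it was 0.048 without diurnal day 0.625 replicate 1 and 0.11 without growth light 250 replicate 2. VTC5 was -0.012 under total-count scaling. The total of 20418095 counts in diurnal day 0.625 replicate 2 limits loci with few counts.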

Other observations

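Gene families were grouped by words in their RefSeq product names after their values were seen, and no test was made of any family. Over all tested loci, 1.86% were called higher and 1.65% lower. Of 52 SAUR-like genes tested, whose relatives promote cell expansion, 10 were called higher in growth light 250 and 0 lower, with a median change of 0.23. One of them, AT1G29430, shares 95.1% of 616 bases with SAUR75, so that reads may be split between them. Copies were searched only for named loci. The called AT1G29440, AT1G29450, AT1G29460, AT1G29500 and AT1G29510 have locus numbers close to AT1G29430, so the 10 calls may not be separate. Of 43 photosystem genes outside the antenna list, 10 were called higher and 0 lower (median 0.19). The largest change of the 10 was that of LHCB4.2 (0.43), an antenna gene that the list did not include. With the spread of 10 groups, 3 SAUR-like and 0 photosystem genes were called.

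Of 136 cytochrome P450 genes, 18 were called higher and 2 lower (1.86% and 1.65% of all tested loci). CYP83B1, which acts in indole glucosinolate synthesis, read 410 and 433 CPM against 316 and 305 CPM (change 0.43). On the lower side, 12 of 55 lipid-transfer protein genes were called and 0 higher, among them LTP2 at 62.3 and 72.3 CPM against 144 and 108 CPM. Of 319 ribosomal protein genes, 12 were called lower and 0 higher (median -0.13), beside 1.65% of all tested loci called lower. Under total-count scaling 49 of them were called lower. Of 52 WRKY genes, 4 were called lower, WRKY28 (-1.90), WRKY60 (-0.92), WRKY54 and WRKY70. Of 50 late embryogenesis abundant protein genes found by the lower-case word embryogenesis, 5 were called lower and 0 higher. LEA4-5, whose product name is capitalised, was left out of the 50 although it was called lower (change -3.13). The median of the 50 was -0.00, above 0 with RLE size factors and below 0 otherwise. With the spread of 10 groups, 1 P450 gene was called higher, and 2 lipid-transfer, 0 ribosomal, 1 WRKY and 1 late embryogenesis abundant protein genes lower. LEA4-5, outside that last count, was also called lower in that fit (adjusted p = 0.00946 in edgeR).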
